A study of Homo sapiens with 8 samples.

Results

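The 10 genes described here encode S100 proteins, a family of small calcium-binding proteins. They are S100P, S100A2, S100A3, S100A4, S100A6, S100A10, S100A11, S100A13, S100A14 and S100A16, among 43317 genes on the array. They were chosen by name from array values that were already known, namely their treated over mock ratio on each of 8 arrays and their mock level in each cell line. All values below are therefore a description, and none was tested. Each array was a two-colour Agilent array with probes of 60 bases, which set treated RNA (labelled with Cy5) against mock RNA (labelled with Cy3) from the same line.

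PC3 prostate cancer cells were given bisamide, a small molecule reported as an inhibitor of the protein PIR (pirin), for 24 h on 1 array and for 48 h on another. The other 6 arrays were of cells transfected with 1 strand of a microRNA (miRNA). The bladder cancer line T24 received miR-140-3p or miR-140-5p, and the renal cancer line 786-O received miR-532-3p or miR-532-5p. PC3 received miR-125b-1-3p, and C4-2, another prostate cancer line, received miR-199-3p. Each group had 1 array, the dyes were never swapped, and all 4 lines are established lines. The mock of every array was labelled as not transfected, so the miRNA strand and the transfection itself cannot be told apart. The labels list bisamide under transfection and give it no concentration or vehicle.

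S100 proteins bind calcium through paired EF-hand motifs, mostly form dimers, and then expose a surface that docks onto other proteins such as annexins, cytoskeletal proteins and p53. Some are also secreted and act on receptors such as RAGE, the product of AGER. Many of the genes lie side by side in the epidermal differentiation region of chromosome 1, and several are widely read as markers of epithelial state and of invasive tumour cells.

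On the array, 9 of the 10 genes had their probe on chromosome 1 and S100P had it on chromosome 4. In GRCh37, the S100P probe lay at chr4:6698819-6698878 on the plus strand. The probes of S100A6, S100A4, S100A3 and S100A2 lay next to each other, the first at chr1:153507255-153507685 and the last at chr1:153533831-153533890. Those of S100A16, S100A14 and S100A13 followed, ending with S100A13 at chr1:153591285-153591344. S100A10, at chr1:151955420-151955479, and S100A11, at chr1:152005160-152005219, lay apart from both runs. All 9 probes on chromosome 1 read the minus strand. All 10 genes matched the RefSeq gene table by accession. S100A11 had 2 probes and the others 1 each.

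A gene was counted as measured on an array when its probe was well above background in both channels. Of the 80 values of these genes, 65 were measured, and 4 genes were measured on all 8 arrays. The number measured was 10 with bisamide for 24 h, 9 on both other PC3 arrays, 8 with each miR-532 strand and with miR-140-3p, 7 with miR-140-5p and 6 in C4-2. Between 15442 and 19241 genes of the array were measured in the same way. Probes with 10 spots each had a median SD of the log2 ratio of 0.04 to 0.05 between spots, which is the repeat error within an array and not the error between cultures.

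The lines were checked in the mock channel. KLK3, which encodes prostate-specific antigen, had a raw Cy3 intensity of 13590 in C4-2 and of 21.4 to 22.6 in the remaining lines, which is at background. PAX8 and PAX2, transcription factors of the kidney tubule, were well above background in 786-O but brighter in T24. PAX8 read 235 to 239 in 786-O and 390 to 423 in T24, and PAX2 read 112 to 124 in 786-O and 551 to 619 in T24. CA9, the other renal marker checked, was at background in all lines, at 21.45 to 23.23 in 786-O. Of the urothelial markers, UPK1A alone was well above background in T24, at 30.7 to 37.9, while UPK2, UPK3A and GATA3 were not. Outside T24, UPK3A was well above background in C4-2, at 30.5, and GATA3 in 2 of 3 PC3 readings. The markers thus separated C4-2 from the other lines but did not set 786-O and T24 apart in the way their labels would.

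The PC3 mocks also differed from each other. The mock of the miR-125b-1-3p array stood above both mocks of the bisamide arrays for all 9 S100 genes measured there, as described further on. Whether these mocks came from different cultures is not stated in the labels, and the part of such a difference in the S100 values was not tested.

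The miRNA strands are shown because each array compares a different one. Their mature sequences from RefSeq (GRCh38.p14) are given with the seed, bases 2 to 8, in capitals. The labels name miR-199-3p without a letter, and RefSeq gives the same mature sequence for miR-199a-3p and miR-199b-3p.
miR-199-3p: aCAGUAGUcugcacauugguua
miR-125b-1-3p: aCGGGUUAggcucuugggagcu
miR-532-5p: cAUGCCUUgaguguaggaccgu
miR-532-3p: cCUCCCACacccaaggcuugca
miR-140-5p: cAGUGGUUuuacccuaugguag
miR-140-3p: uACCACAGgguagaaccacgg
The 6 strands had 6 different seeds, so no pair of arrays repeats a seed.

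S100P encodes a secreted and cytoplasmic S100 protein, first found in placenta, that binds ezrin and RAGE. Its probe went from a raw intensity of 204 in the mock to 3194 with bisamide for 24 h, and from 226 to 3158 for 48 h. After normalization the log2 ratio was 2.97 at 24 h and 2.83 at 48 h, folds of 7.82 and 7.11. Both time points were thus close to each other and far above the mock. S100P was the highest of all measured genes on both arrays. In RNA of whole cultures, a larger share of cells carrying a transcript and more of it per cell cannot be told apart.

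A log2 size of 1.5, which the study applied to lower genes after another miRNA transfection, was used here in both directions. S100P was the 1 gene of the 10 past it on each bisamide array, where 0.078% of all measured genes passed at 24 h and 0.0368% at 48 h. These contrasts were in view when S100P was chosen, so nothing is read from the comparison.

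**Figure D1:**
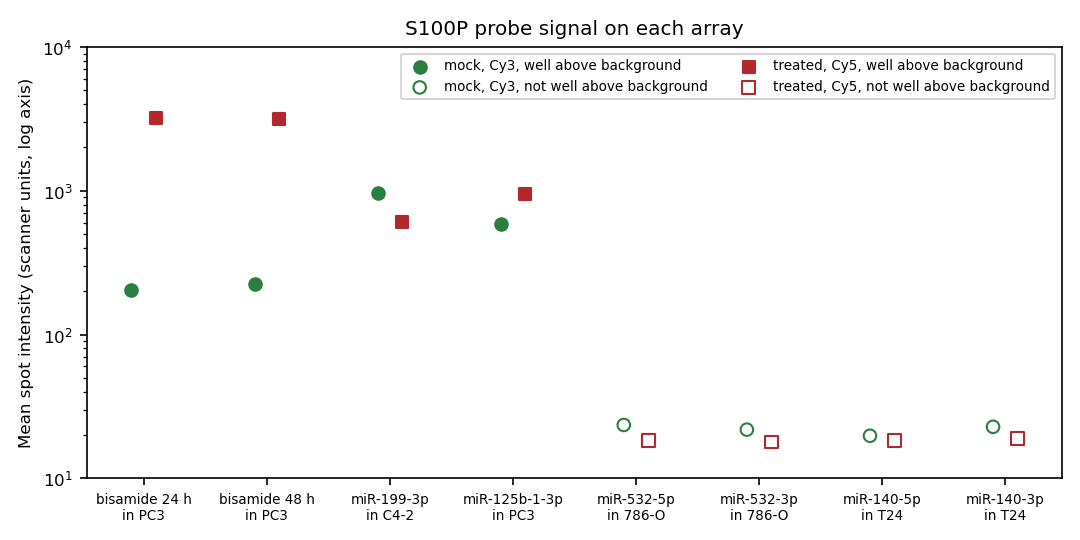
Raw mean spot intensity of the S100P probe (log axis, scanner units) on each of the 8 arrays, with the mock channel as circles and the treated channel as squares; open symbols are not well above background. With bisamide the signal went from 204 to 3194 and from 226 to 3158, with miR-199-3p from 971 to 603, and in 786-O and T24 it stayed at background.

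S100P was also carried by C4-2, where the raw signal went from 971 in the mock to 603 with miR-199-3p. The log2 ratio was −1.29, which is 0.410 of the mock level, and with median centring in place of loess it was −0.67. With miR-125b-1-3p in PC3 it went from 591 to 950 in raw signal and had a log2 ratio of −0.06. Its raw ratio on that array was 1.61, and the 200 genes nearest to it in signal had a median raw ratio of 1.72, so Cy5 ran brighter than Cy3 for S100P as for its like. In 786-O and T24 the probe read 19.8 to 23.5 in the mock and 17.9 to 18.9 in the treated channel, not well above background, so no ratio is given for those lines.

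The upstream 250 bases of S100P are shown because the gene had the largest ratios of the family. They lie at chr4:6693628-6693877 in GRCh38.p14 (RefSeq), on the plus strand, and end at the base before the annotated start. Capitals mark a match to TGATGNAA, the C/EBP-ATF composite element, on the opposite strand, at −123 to −116 from the start.
S100P: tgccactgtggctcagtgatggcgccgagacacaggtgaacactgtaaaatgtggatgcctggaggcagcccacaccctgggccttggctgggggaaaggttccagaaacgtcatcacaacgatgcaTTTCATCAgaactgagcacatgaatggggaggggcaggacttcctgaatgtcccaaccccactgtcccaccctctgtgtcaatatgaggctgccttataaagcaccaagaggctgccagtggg
Both strands were searched over the same 250 bases of all 27305 RefSeq promoters. TGATGNAA was held by 3.19% of them and, among the 10 S100 genes, by S100P alone. TGANTCA, the AP-1 site, was held by 6.6% of promoters and by S100A2, at −52 to −46, and S100A3, at −225 to −219. GAANNTTC, a pair of heat shock element units, was held by 5.85% of promoters and by 0 of the 10. The S100P window held 1 match to the searched motifs, so no overlap arises among them. The motif search was made with the S100P ratios already known, so nothing is read from these shares. A match of letters is not a site that was measured.

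The 5 genes whose ratios were most like those of S100P over the 8 arrays were SARS, SLC7A5, EPRS, IARS and PCK2, among 10204 named genes measured on all 8. Pearson's r with S100P was 0.99, 0.98, 0.98, 0.98 and 0.97. SARS, the seryl-tRNA synthetase, had a log2 ratio of 0.86 at 24 h and 0.66 at 48 h, and of −0.61 with miR-199-3p. SLC7A5, a transporter of large neutral amino acids, was at 1.37, 1.02 and −0.88 on the same arrays. These values share the mock of each array, S100P was at background on 4 of the 8, and r rests mostly on the 3 arrays where S100P was far from 0.

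On the bisamide arrays none of the other 9 genes passed 1.5 in size. The band that held the middle 90% of all measured genes ran from −0.23 to 0.28 at 24 h and from −0.25 to 0.28 at 48 h on the log2 scale. The median over the 10 genes was 0.15 at 24 h, and over the 9 measured at 48 h it was 0.22, where the median of all genes was 0.01 on both arrays. S100A2 lay outside the band at both times and S100A6 at 48 h, where it was at 0.35. S100A10 was the 1 gene of the family below 0 at both times, at −0.14 and −0.17. With median centring in place of loess, 9 genes of the family, S100P included, passed 0.5 on each of these arrays. The median of all genes itself then stood at 0.45 at 24 h and 0.44 at 48 h.

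At a smaller size of 0.5, S100P was the 1 gene past it at 24 h, where 1.05% of all genes were higher and 0.4% lower. At 48 h S100A2 joined it, with 0.915% of all genes higher and 0.878% lower. S100A2 encodes a mainly nuclear S100 protein of basal epithelial cells, known for binding p53. Its raw signal went from 644 to 1512 at 24 h and from 589 to 1596 at 48 h, with log2 ratios of 0.38 and 0.59. The raw ratio of S100A2 was 2.35 and 2.71, against a median of 1.80 and 1.75 over the 200 genes nearest to it in signal.

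**Figure D2:**
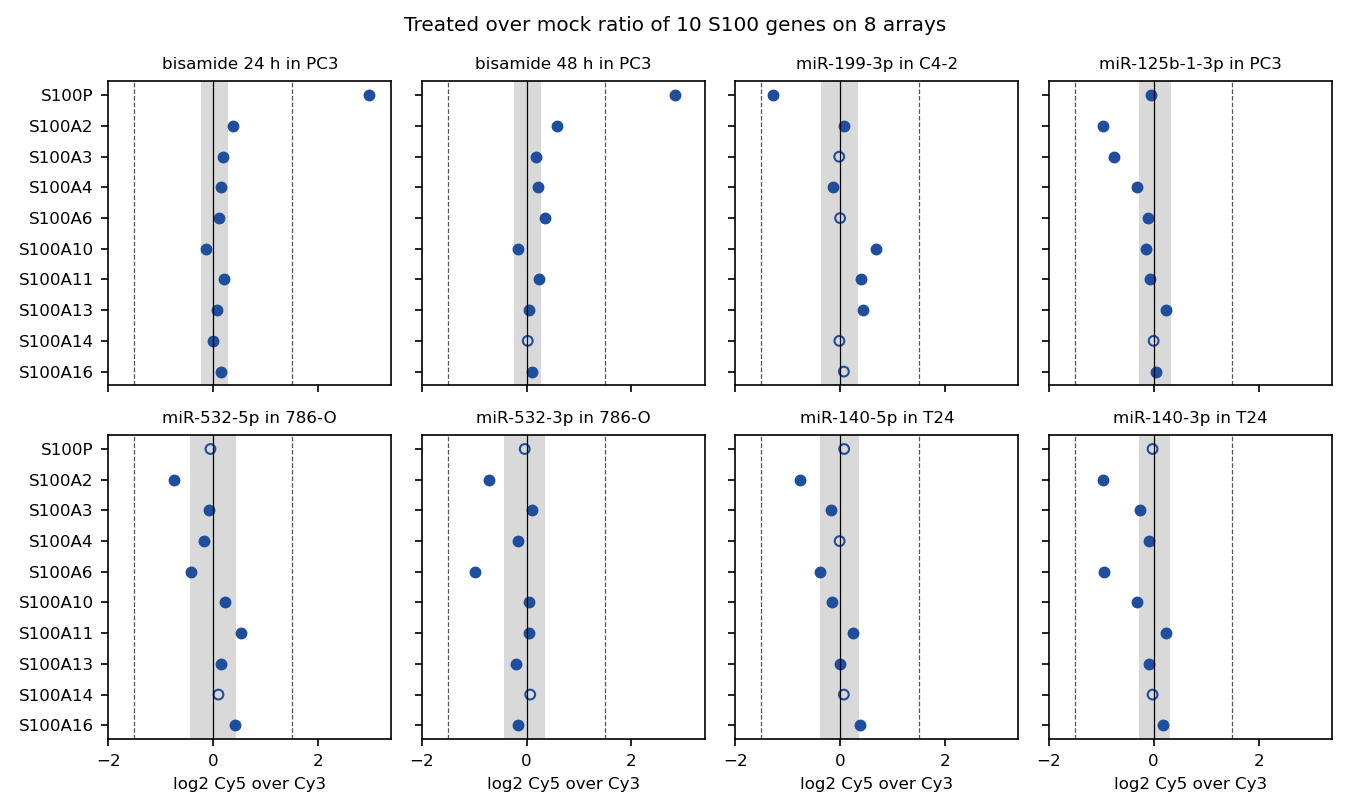
Log2 ratio of treated over mock RNA (x axis) of the 10 S100 genes on each of the 8 arrays; filled points were well above background in both channels, open points were not, the grey band holds the middle 90% of all measured genes and dashed lines mark 1.5 in size. S100P lies at 2.97 and 2.83 with bisamide, and S100A2 lies between −0.97 and −0.72 on the 5 miRNA arrays outside C4-2.

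With the miRNAs, 0 of the 10 genes passed 1.5 in size. Among all measured genes, the share past it was 0.0114% for miR-140-3p and 0.142% for miR-140-5p. For miR-532-3p the share was 0.149% and for miR-532-5p it was 0.102%. It was 0.0107% for miR-125b-1-3p and 0.121% for miR-199-3p. Over all 8 arrays, 9 of the 65 measured values were lower and 5 higher by more than 0.5, and 51 lay within it.

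S100A2 accounted for 5 of these lower values, on every miRNA array outside C4-2. Its log2 ratio was −0.97 with miR-125b-1-3p, from raw signals of 3838 to 3546. In 786-O it was −0.74 with miR-532-5p, from 933 to 494, and −0.72 with miR-532-3p, from 911 to 764. In T24 it was −0.77 with miR-140-5p, from 182 to 139, and −0.97 with miR-140-3p, from 205 to 144. The treated signal was thus below the mock signal on all 5 even before normalization, while the 200 genes nearest in signal had median raw ratios of 0.906 to 1.76 on those arrays. In C4-2 the gene was dim, at 31.8 to 38.8, and its log2 ratio was 0.07. The mocks of 786-O, and likewise those of T24, were close in signal and may be 1 RNA each, so the arrays of those lines do not repeat each other independently. S100A2 was lower on 5 of the 8 arrays, so its median over the remaining arrays was itself a lowered value. Removing that median had to bring these values toward 0, so the step cannot show whether they hold. When each gene's median over the remaining arrays was removed, none of the 5 values stayed past 0.5. In T24 they came to −0.25 for the 3p strand and −0.04 for the 5p strand, in 786-O to 0.02 for the 3p and −0.02 for the 5p strand, and in PC3 to −0.24. With median centring in place of loess, miR-532-5p alone stayed past 0.5, at −0.85. The other values were −0.45 and −0.33 for the 3p and 5p strands in T24, −0.25 for the 3p strand in 786-O and −0.19 in PC3. The median of all genes was then 0.45 and 0.35 for the 3p and 5p strands in T24. It was 0.17 for miR-532-3p, −0.03 for miR-532-5p and 0.42 with miR-125b-1-3p in PC3.

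S100A6, or calcyclin, lies at the other end of the same run on chromosome 1 and encodes a protein of proliferating cells that binds the ubiquitin ligase component CACYBP. It was among the brightest probes, ranking 36 to 224 by raw signal where it was measured. Its log2 ratio was −0.99 with miR-532-3p and −0.94 with miR-140-3p, against −0.43 with miR-532-5p and −0.38 with miR-140-5p. In raw signal it went from 7039 to 5986 with miR-532-3p and from 12000 to 14060 with miR-140-3p. The second of these was a raw rise of 1.17-fold where the 200 nearest genes rose by a median of 2.30-fold, so its direction rests on the within-array normalization. With median centring in its place the value was 0.17, where the median of all genes was at 0.45, and the value with miR-532-3p was −0.24, no longer past 0.5. In PC3 the log2 ratio was 0.12 and 0.35 with bisamide and −0.11 with miR-125b-1-3p.

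S100A3, known from hair follicle and cuticle, had its lowest value with miR-125b-1-3p, at −0.76, from 279 to 244 in raw signal. On its other measured arrays it lay between −0.26 and 0.20. With median centring in place of loess, S100A3 with miR-125b-1-3p was at −0.22, where the median of all genes was 0.42. With the remaining arrays' median removed it was at −0.74. S100A4, or metastasin, binds non-muscle myosin and is known for its part in cell motility. None of its 7 measured values passed 0.5, and they ran from −0.32 with miR-125b-1-3p to 0.22 with bisamide for 48 h. In 786-O, T24 and C4-2 the S100A4 probe read at most 37.5 in the mock, close to background. Without the offset of 50, S100A4 passed 0.5 on 3 of these arrays, at −0.79 for the 5p and −0.64 for the 3p strand in 786-O and at −0.55 in C4-2, and the scanner's own ratio gave −0.96, −0.90 and −0.76.

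Lower by more than 0.5 in T24 were S100A2 and S100A6 of 8 measured genes with miR-140-3p, and S100A2 of 7 with miR-140-5p, where 1.09% and 2.89% of all measured genes were lower by as much. In 786-O they were S100A2 and S100A6 of 8 with miR-532-3p and S100A2 of 8 with miR-532-5p, against 3.84% and 3.67% of all genes. In PC3 they were S100A2 and S100A3 of 9 with miR-125b-1-3p, against 0.883%. In C4-2 the 1 of 6 was S100P, against 2.73%.

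S100A10 and S100A11 are the partners of annexins, S100A10 forming a tetramer with annexin A2 at the plasma membrane and S100A11 binding annexin A1. S100A10 was higher with miR-199-3p, at 0.69, where its raw signal went from 85.2 to 221. On the other arrays it lay between −0.32 and 0.22. S100A11 was higher with miR-532-5p, at 0.53, from 1010 to 1369 in raw signal, and had 0.04 with miR-532-3p in the same line. The second S100A11 probe read 0.48 and 0.10 on these arrays, so both probes moved alike. With miR-532-5p, S100A11 was at 0.45 with median centring and at 0.30 with the remaining arrays' median removed. With miR-199-3p the S100A11 probes read 0.41 and 0.51.

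These were the 2 higher values past 0.5 on the miRNA arrays. Among all genes, 1.76% were higher by this size in C4-2 with miR-199-3p and 3.6% in 786-O with miR-532-5p. On the arrays where no S100 gene was, the share was 0.998% for miR-140-3p, 1.74% for miR-140-5p, 1.71% for miR-532-3p and 1.77% for miR-125b-1-3p.

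S100A13, which takes part in the release of FGF1, and S100A16, a widely expressed member, did not pass 0.5 on any array. S100A13 ran from −0.19 with miR-532-3p to 0.43 with miR-199-3p. S100A16 was at 0.42 with miR-532-5p and −0.16 with miR-532-3p in 786-O, and at 0.38 and 0.19 with the miR-140 strands in T24. S100A14, known from epithelial cells, read 17.5 to 28.5 across all channels and was measured only with bisamide for 24 h, at 0.01, so these arrays say little about it.

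Both strands of a miRNA duplex were compared in the same line for miR-532 and miR-140. In 786-O, the largest differences were in S100A16, at 0.58 on the log2 scale, S100A6, at 0.56, and S100A11, at 0.49, each higher with the 5p strand. The median size of this difference over all genes was 0.15 and its 95th percentile 0.63, so all 3 lay inside it. In T24, S100A6 differed by 0.56 in the same direction, just past the 95th percentile of 0.53. S100A2 differed by −0.02 in 786-O and by 0.21 in T24. With 1 array per strand, the error of these differences is not known. They also depend on loess. With median centring in its place, the 5p and 3p values of S100A6 in 786-O were −0.42 and −0.24. Those of S100A11 were 0.45 and 0.57, those of S100A16 0.32 and 0.29, and those of S100A2 −0.85 and −0.25. The median of all genes was then −0.03 and 0.17. In T24, S100A6 stayed higher with the 5p strand, at 0.77 against 0.17.

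In the mock cells, C4-2 stood apart from the other 3 lines for several of the genes, though not for all. Levels are log2 Cy3 values after normalization between arrays, and they compare lines for 1 probe, never probes with each other. S100A6 was at 5.75 in C4-2, not well above background, against 13.8 to 14.8 in the PC3 readings and 13.87 to 13.95 in 786-O and T24. It was at least 253-fold higher in each of the other lines. S100A16 was likewise not well above background in C4-2 and was at least 46.9-fold higher in PC3, 21.6-fold in 786-O and 19.3-fold in T24. These bounds set the bright lines against the lowest signal that counted as well above background.

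S100A10 was measured in C4-2 at 7.73, which was 13.1-fold below T24, the next line, and below PC3 and 786-O as well. S100A2 was at 6.29 in C4-2 and 3.00-fold higher in T24. S100A3 was not well above background in C4-2 and was at least 3.15-fold higher in PC3. S100A13 and S100A11 differed less, with S100A13 1.49-fold lower in C4-2 than in T24 and S100A11 in C4-2 between T24 and PC3. In raw Cy3, S100A11 was lowest in C4-2, at 378 against 506 to 827 in PC3. S100A4 in C4-2, at 6.26, lay between the means of 786-O, at 6.41, and T24, at 5.93.

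**Figure D3:**
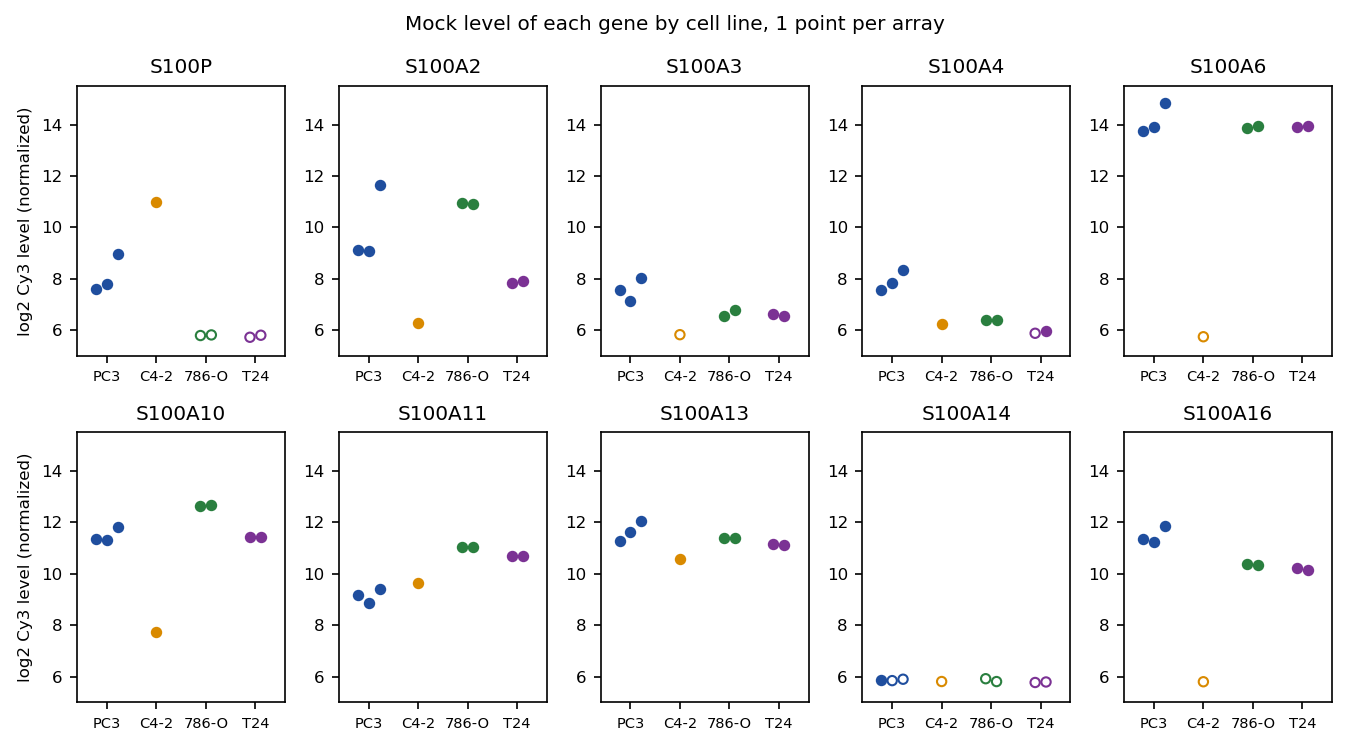
Mock level (log2 Cy3, normalized between arrays) of each of the 10 S100 genes by cell line, 1 point per array; open points were not well above background, and panels show different probes whose levels are not comparable. In C4-2, S100A6 is at 5.75 and S100A16 at 5.80, while S100P is at its highest, 10.97.

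S100P ran the other way. Its mock level was 10.97 in C4-2, 7.60 to 8.96 in PC3 and at background in 786-O and T24. C4-2 was 7.19-fold above the mean of the PC3 readings and at least 34.1-fold above T24 and 34.8-fold above 786-O. PC3 was at least 4.75-fold above T24. In raw Cy3, S100P read 971 in C4-2 and 204 to 591 in PC3.

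Where every reading of a line had to lie more than 1.0 from every reading of the other lines, C4-2 was below for 4 of the 10 genes, S100A2, S100A6, S100A10 and S100A16. This held for 2.15% of the 22631 genes well above background in any mock. C4-2 was above for S100P, and 3.69% of all genes were above in this way. PC3 was above for S100A4, as were 1.19% of all genes. C4-2 had a single mock reading, so its own spread is not known.

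Among PC3, 786-O and T24 the order differed from gene to gene. These orders are of normalized levels, and raw Cy3 gave other orders for some genes. S100A10 was highest in 786-O, 2.25-fold above PC3, and the readings of PC3 and T24 overlapped. In raw Cy3, S100A10 read 2789 to 2934 in 786-O, 2808 to 4149 in PC3 and 2244 to 2319 in T24. S100A11 was highest in 786-O, then T24, then C4-2 and PC3, where the gap between the last pair was under the spread of the PC3 readings. Its raw Cy3 was 1000 to 1010 in 786-O, 1372 to 1434 in T24, 378 in C4-2 and 506 to 827 in PC3. S100A6 overlapped among all 3 lines after normalization. In raw Cy3 it did not, at 13720 to 24400 in PC3, 11250 to 12000 in T24 and 7039 to 7451 in 786-O. S100A16 was highest in PC3, 2.17-fold above 786-O. S100A13 overlapped between PC3 and 786-O after normalization, while its raw Cy3 was 2869 to 4522 in PC3 and 1248 to 1302 in 786-O. S100A3 was highest in PC3, by a gap under the spread of the PC3 readings, and overlapped between 786-O and T24. Its raw Cy3 was 40.1 to 44.5 in 786-O and 57.3 to 59.5 in T24. S100A4 was 2.84-fold higher in PC3 than in 786-O, the next line. S100A2 overlapped between 786-O and PC3, because its PC3 readings ran from 9.07 to 11.64. S100A14 was near background in all lines, with no order to read.

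The highest PC3 mock of all 9 measured genes was that of the miR-125b-1-3p array. For S100A2 the mock level was 9.11 and 9.07 on the bisamide arrays and 11.64 on the miR-125b-1-3p array, which was 5.87-fold higher. For S100P the mocks were 7.60, 7.81 and 8.96, the last 2.38-fold higher. For S100A6 they were 13.76, 13.90 and 14.83, the last 2.00-fold higher. The mocks of the bisamide arrays differed by at most 0.44 from each other, in S100A3.

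The 9 genes exceeded the mean of the other PC3 mocks by 0.39 for S100A11 up to 2.55 for S100A2 on the log2 scale. The median of this difference over 17772 genes was −0.02 and its 95th percentile 0.34, which all 9 exceeded. The 2 genes past 1.0 were S100A2 and S100P, against 0.433% of all genes past 1.0 in this direction. This comparison was chosen after the values were seen, and its cause was not tested.

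The S100P level with bisamide was above every PC3 mock. Its treated level was 10.57 at 24 h and 10.64 at 48 h, and the lower of these was still 3.05-fold above the mock of the miR-125b-1-3p array. For the 8 other genes the lower bisamide level was below the highest PC3 mock. S100A2 with bisamide, at 9.49 and 9.66, was well below the 11.64 of that mock, although its ratio on its own arrays was above 0. The treated level of S100A2 with miR-125b-1-3p was 10.67, which was below its own mock and above both mocks of the bisamide arrays.

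**Figure D4:**
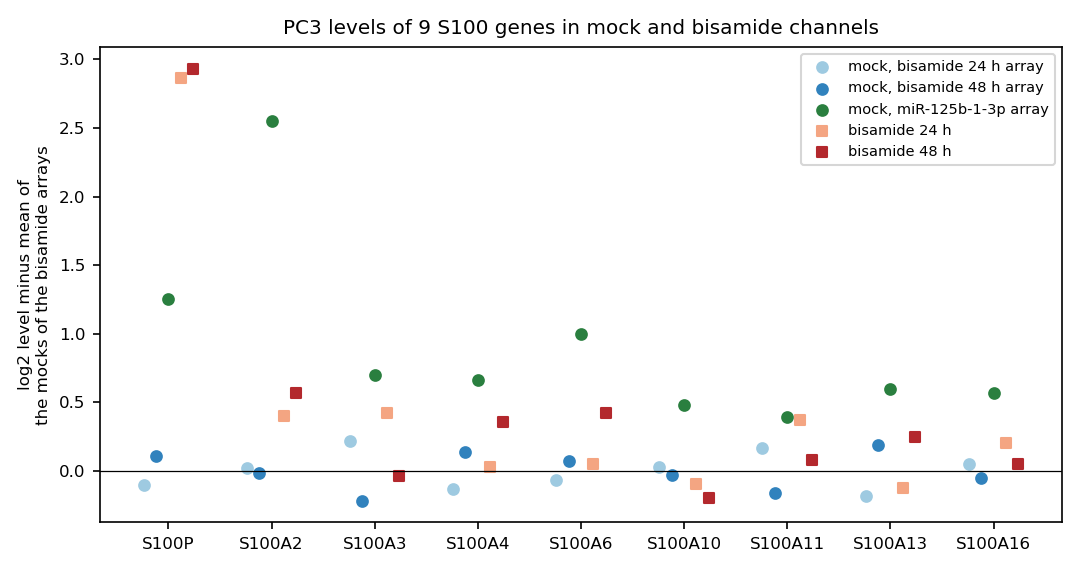
Log2 level of the 9 measured S100 genes in PC3 cells, relative to the mean of the mocks of both bisamide arrays (y axis); circles are the 3 mocks and squares the cells given bisamide. The mock of the miR-125b-1-3p array lies above both other mocks for all 9 genes, and bisamide lies above all mocks for S100P alone.

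The rest of the family was mostly silent here. Of 11 other S100 genes on the array, 7 were never well above background, and S100A5 alone was measured on all 8 arrays, with log2 ratios between −0.01 and 0.31. S100A9, the calprotectin subunit of myeloid cells, was measured on 1 array, with miR-125b-1-3p, at −0.02. S100A5 and S100A9 were picked for naming with their values in view. Of the 7 fused S100-type genes of the same region, whose proteins build the outer epidermis, FLG (filaggrin) was measured in 786-O, at −1.03 with miR-532-5p and −0.12 with miR-532-3p.

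Of 26 genes for partners and receptors of S100 proteins, 24 were measured on at least 1 array and 15 on all 8. None passed 1.0 in size on any array, so the partners named next were chosen after their values were seen. With bisamide, 0 of 20 passed 0.5 at 24 h and 1 of 22 at 48 h, against 279 of 19241 and 341 of 19020 of all genes. On the miRNA arrays 1 to 5 did, of 18 to 21 measured, with medians between −0.02 and 0.09. The most was 5 of 21 with miR-532-3p, where 857 of 15442 of all genes passed. Over the miRNA arrays, all genes ran from 366 of 17533 with miR-140-3p to 1139 of 15669 with miR-532-5p. The list was chosen with earlier results known, so nothing is read from these counts. AGER, which encodes RAGE, ran from −0.07 to 0.27. EZR, which encodes ezrin, the partner of S100P, was at −0.05 and −0.02 with bisamide and at −0.72 and −0.67 with the miR-532 strands. ANXA2, the partner of S100A10, was not well above background in C4-2, at a raw mock signal of 23.0 against up to 11770 in the other lines, and C4-2 was also the line where S100A10 had its lowest mock level. Elsewhere ANXA2 ran from −0.51 with miR-140-3p to 0.25 with bisamide for 48 h.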

How the data were processed

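Total RNA was amplified and labelled with Cy3 (mock) or Cy5 (treated) and hybridised to 8 arrays, which per the file headers the authors read with Feature Extraction 11.5.1.1. The deposited files give spot and local background intensity on a linear scale in each channel, and a log10 ratio from the scanner software. The deposited series table held the same log10 ratio, with a largest difference of 0, and had 0 columns without a sample. The array design uses GRCh37 coordinates.

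Here the deposited mean intensities were corrected with normexp (offset 50) and normalized by loess within each array in limma 3.58.1 (R 4.3.3), which gave the log2 ratio of treated over mock. The 126 to 181 outlier spots of an array and control spots were left out, spots of a probe were averaged, and a gene was represented by its probe with the highest mean signal. No member was read from a saturated spot, since 0 spots were saturated. Mock levels are log2 Cy3 values after Aquantile normalization. The steps were checked on simulated arrays, in which Cy5 of unchanged genes ran brighter than Cy3 by the same factor at every signal. That check did not try the correction of a dye difference that varies with signal. An offset of 50 draws ratios of dim genes toward 0.

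The members and gene lists were chosen with earlier results of these data known. Named besides the 10 members were genes of the other lists past 0.5 in size on both bisamide arrays or past 1.0 on any, and the 5 genes most correlated with S100P. FLG alone met the first part, and S100A5, S100A9, AGER, EZR and ANXA2 were named after their values were seen. With 1 array per group no p-value was computed, and precision is limited by how few arrays there are. Other background corrections, centring, the scanner's ratio, the series table, other filters and other scalings of Cy3 were tried. A further gene of the marker lists is not reported here.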

Additional observations from a re-analysis of the deposited data

How the results depend on the processing

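No paired analysis was possible because no group has a second array. The series table equals the scanner's ratio and gave the same values. The S100P ratio stayed above 1.5 under every alternative. Its values at 24 h and 48 h were 3.21 and 3.05 (normexp offset of 0), 3.22 and 3.06 (plain subtraction), 3.14 and 2.98 (uncorrected background), 3.69 and 3.55 (median centring), and 3.20 and 3.06 (scanner's ratio and series table). At 48 h it was 2.87 once each gene's median over the remaining arrays was removed. The count past 1.5 changed in 1 case, to 1 in C4-2 at a size of 1.0, which is lower by construction.

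Counts past 0.5 were 1 at 24 h and 2 at 48 h of bisamide, 2 in C4-2, 2 with miR-125b-1-3p, 2 for each strand in 786-O, and 1 with the 5p and 2 with the 3p strand in T24. With median centring they were, in this order of arrays, 9, 9, 4, 6, 1 for miR-532-5p, 2 for miR-532-3p, 5 and 4, nearly all higher, with the all-gene median between −0.03 and 0.45. With the remaining arrays' median removed they were 3, 3, 3, 1, 0, 1, 0 and 1. With an offset of 0, plain subtraction or the scanner's ratio they were 3 in C4-2, for each miR-532 strand and with miR-140-3p, where S100A4, or S100A3 with miR-140-3p, was added. The cause of these changes was not tested, although centring without loess leaves the brighter Cy5 of bright genes in place.

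Directions turned for 2 of the values past 0.5. S100A2 with miR-532-3p went to 0.018 with the remaining arrays' median removed, a step that takes away a shift shared by most arrays. S100A6 with miR-140-3p went to 0.17 with median centring. The count of genes for which PC3 mocks stood above all other lines went from 1 to 2 with raw Cy3 scaled to the 75th percentile. Leaving out each mock reading of PC3, 786-O and T24 in turn, which cannot be done for the single C4-2 reading, kept the counts at 4 below and 1 above for C4-2 and at 1 above for PC3. The difference between the PC3 mocks, under settings chosen after seeing the data, ran from 2.53 to 2.58 for S100A2 and from 1.12 to 1.40 for S100P, and 2 or 3 genes passed 1.0. Genes near background, as S100A14 throughout and S100P in 786-O and T24, had too little signal to show a change.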
